A study of Mus musculus with 18 samples.

Results

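The genes described here are 10 of the interleukin-1 (IL-1) system and the inflammasome, chosen by name: Il1a, Il1b, Il1rn, Il18, Il1r2, Il1rap, Casp1, Casp4, Nlrp3 and Pycard. They are 10 of the 53379 gene IDs in the deposited count table. Each matched 1 ID, and all 10 passed the filter on low counts that left 11569 genes for testing.

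RNA was measured in neutrophils sorted by flow cytometry from the bone marrow of 10-week-old mice. There were 6 groups of 3 libraries. Cells labelled CIS-/-, a knockout of Cish, and wild-type (WT) cells were each lysed straight after sorting (unstimulated) or after 4 h or 24 h of culture with 100 ng/mL GM-CSF. All cultures contained GM-CSF, so its effect and that of time in culture cannot be told apart. The labels do not say whether replicates came from separate mice, so each p-value reflects only how much these libraries differ, which may be technical. The sources used here do not give the strain, the sex or the form of the Cish allele. In bulk RNA, fewer cells of a type and less RNA per cell cannot be told apart.

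IL-1α and IL-1β are cytokines that act through the same receptor, which signals only after it recruits the accessory protein encoded by Il1rap. The system carries its own brakes: the antagonist encoded by Il1rn occupies the receptor without signalling, and Il1r2 encodes a decoy receptor that binds the cytokine but lacks a signalling domain. IL-1β and IL-18 are made as inactive precursors, which caspase-1 cleaves inside inflammasomes, complexes built from a sensor such as NLRP3 and the adaptor ASC, the product of Pycard. Mouse caspase-11, encoded by Casp4, senses bacterial lipopolysaccharide in the cytosol and can activate NLRP3 indirectly. GM-CSF is a cytokine of myeloid cells that signals through JAK2 and STAT5, and CIS is an inhibitor of cytokine signalling that STAT5 induces.

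Library totals ran from 12170524 to 22539858 counts. Cish itself, the gene that the label concerns, was at 237 to 243 CPM (counts scaled to library size) in the 4 h libraries labelled CIS-/- against 1138 to 1155 CPM in WT. At 24 h it was at 233 to 243 CPM against 1056 to 1069 CPM. In unstimulated cells it went the other way, at 17.9 to 20.0 CPM in the libraries labelled CIS-/- against 6.48 to 6.52 CPM in WT (log2 fold change 1.52 ± 0.08, edgeR adjusted p = 4.72e-25). The form of the allele is not given, so the level of Cish RNA alone cannot decide whether a label is right. The unstimulated WT libraries are the other side of that same comparison. Every direction below that rests on the unstimulated libraries labelled CIS-/- carries this open doubt, and none of those results can be had without them. The genotype comparisons at 4 h and 24 h use these libraries only in the shared filter on low counts, scaling and estimate of the spread. A fit of the compared groups alone changed no member's call. The 10 neutrophil markers summed to 90530 to 95312 CPM in the 6 unstimulated libraries, 55490 to 59306 CPM at 4 h and 25511 to 30970 CPM at 24 h, both genotypes together. At 24 h, CIS-/- replicate 1 stood apart from its group: the chi-square per degree of freedom was 7.06 against replicate 2 and 8.97 against replicate 3, and 3.03 or less in all other pairs of replicates.

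After 24 h with GM-CSF, the libraries labelled CIS-/- held far more mRNA of the IL-1 ligands and of their antagonist than WT libraries did. Il1a was 43.6-fold, Il1rn 12.2-fold and Il1b 7.29-fold higher, and so were Casp4 (12.5-fold), Il1rap (4.74-fold) and Nlrp3 (2.49-fold). The decoy receptor gene Il1r2 and the adaptor gene Pycard were lower, at 0.783-fold and 0.675-fold. Casp1 and Il18, the caspase that matures the cytokines and one of its substrates, had fallen in both genotypes by 24 h, and no difference between genotypes was called for either. At 4 h the fitted difference between genotypes was under 2-fold in every member.

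**Figure D1:**
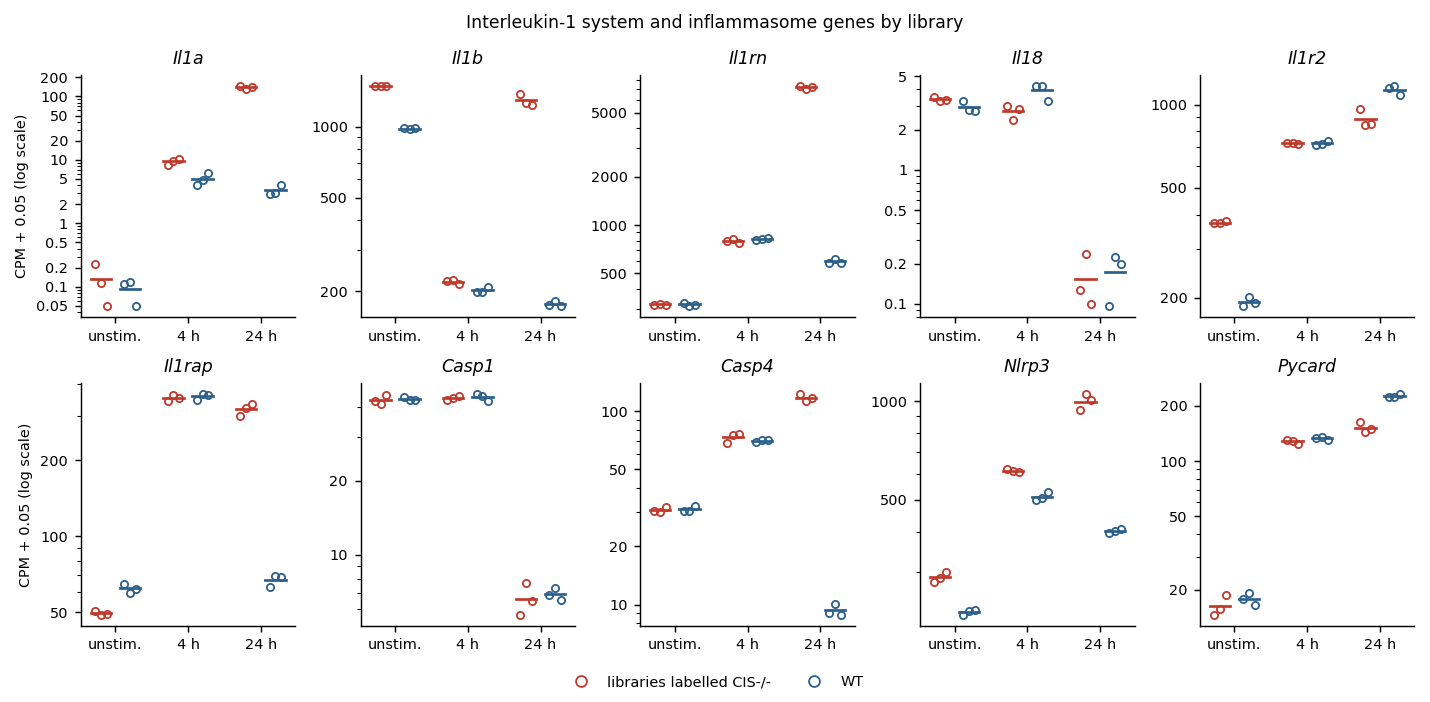
Level of each of the 10 genes in each of the 18 libraries, in CPM plus a small constant on a log axis, by time and genotype. Points are libraries and short horizontal lines mark group means. Il1a, Il1rn and Casp4 separate at 24 h, with Il1rn at 7029 to 7392 CPM in libraries labelled CIS-/- and at 579.9 to 614 CPM in WT, while Casp1 lies at 5.66 to 7.63 CPM in libraries labelled CIS-/- and at 6.47 to 7.27 CPM in WT.

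Il1a, the gene of IL-1α (chr2:129299610-129309972, minus strand, GRCm38), was almost absent from fresh cells. The unstimulated libraries labelled CIS-/- held 3, 1 and 0 reads of it, and the unstimulated WT libraries 1, 1 and 0. Its level in those labelled CIS-/- was 8.35, 9.50 and 10.4 CPM at 4 h and 148, 131 and 142 CPM at 24 h. WT libraries had 4.04, 4.69 and 6.27 CPM at 4 h and 2.84, 2.99 and 3.92 CPM at 24 h. The genotypes did not overlap at either time in culture, and all 3 libraries labelled CIS-/- at 24 h stood far above the other 15. The excess over WT was 0.92 ± 0.14 on the log2 scale at 4 h (standard error, edgeR adjusted p = 7.73e-07) and 5.45 ± 0.08 at 24 h (adjusted p = 9.09e-49).

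Against so few reads in unstimulated cells, the change of Il1a with time is given as a ratio of summed counts, scaled by library size. Its 95% interval covers counting error only. With 383 reads at 4 h against 4 unstimulated, the libraries labelled CIS-/- had a ratio of 112 (43.6 to 415). With 6171 reads at 24 h, their ratio to unstimulated was 1682 (657 to 6176). For WT the ratios were 124 at 4 h (33.8 to 1029) and 80.1 at 24 h (21.9 to 666). Between 4 h and 24 h Il1a rose by 3.90 ± 0.08 on the log2 scale in the libraries labelled CIS-/- (adjusted p = 3.16e-43). In WT it fell over the same interval, with a change of -0.63 ± 0.16 (adjusted p = 0.00045), a call that was lost when libraries were scaled by their totals alone (-0.14, adjusted p = 0.413). Of 4 motifs searched on both strands (STAT, AP-1, C/EBP and NF-kB), the 250 bases before the Il1a start held 1 match, to AP-1 (TGANTCA), printed in capitals. They come from RefSeq (GRCm38.p6, chr2:129309973-129310222, minus strand, written 5′ to 3′ along the gene) and are shown because Il1a differed most between genotypes.
Il1a: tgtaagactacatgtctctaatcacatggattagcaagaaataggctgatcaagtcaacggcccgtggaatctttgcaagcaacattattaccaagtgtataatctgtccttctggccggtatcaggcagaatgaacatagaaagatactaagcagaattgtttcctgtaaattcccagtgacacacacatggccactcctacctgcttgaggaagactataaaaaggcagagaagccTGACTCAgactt

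Il1b, the gene of IL-1β (chr2:129364570-129371139, minus strand), behaved differently: it was high in fresh cells, fell at 4 h, and returned only in the libraries labelled CIS-/-. In these its level was 1486, 1494 and 1483 CPM unstimulated, 221, 223 and 214 CPM at 4 h, and 1375, 1264 and 1232 CPM at 24 h. WT libraries had 982, 974 and 988 CPM unstimulated, 199, 198 and 208 CPM at 4 h, and 176, 182 and 173 CPM at 24 h. At 4 h every library of either genotype was below every unstimulated one, and at 24 h the genotypes were far apart. The 4 h fall was -2.76 ± 0.04 on the log2 scale in the libraries labelled CIS-/- (adjusted p = 2.89e-57) and -2.28 ± 0.04 in WT (adjusted p = 5.81e-53).

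Il1b then rose between 4 h and 24 h by 2.55 ± 0.04 on the log2 scale in the libraries labelled CIS-/- (adjusted p = 1.88e-55), to a level still slightly under their unstimulated one (-0.21 ± 0.03, adjusted p = 7.35e-08). In WT it was -0.19 ± 0.04 over the same interval (adjusted p = 6.4e-06), a small fall that turned into a rise of 0.30 (adjusted p = 3.26e-11) with libraries scaled by their totals alone. The genotype difference at 24 h was 2.87 ± 0.04 (adjusted p = 3.3e-58). The 4 h difference was small, 0.12 ± 0.04 (adjusted p = 0.0108), and the call was lost when CIS-/- 4 h replicate 2, WT 4 h replicate 1 or WT 4 h replicate 2 was left out (adjusted p = 0.0622 to 0.0708). In unstimulated cells Il1b was higher in the libraries labelled CIS-/- by 0.60 ± 0.03 (adjusted p = 2.16e-23), which is a difference between libraries whose Cish goes against the label.

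Il1rn encodes the receptor antagonist (chr2:24336853-24351494, plus strand), and at 24 h in the libraries labelled CIS-/- it had the highest level per exon length of the 10 genes in any group. In the libraries labelled CIS-/- it stood at 318, 323 and 318 CPM unstimulated, 796, 814 and 774 CPM at 4 h, and 7392, 7029 and 7215 CPM at 24 h. In WT libraries it stood at 328, 313 and 319 CPM unstimulated, 809, 824 and 831 CPM at 4 h, and 579.9, 614 and 584 CPM at 24 h. The genotypes overlapped unstimulated and at 4 h, and did not at 24 h. The rise at 4 h was alike in size, 1.31 ± 0.03 in the libraries labelled CIS-/- (adjusted p = 8.71e-43) and 1.36 ± 0.03 in WT (adjusted p = 1.34e-43), and the 4 h genotype difference had a 95% interval of -0.11 to 0.01.

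By 24 h the level of Il1rn in the libraries labelled CIS-/- had risen by a further 3.18 ± 0.03 on the log2 scale (adjusted p = 2.78e-62). The WT change from 4 h to 24 h was -0.47 ± 0.03 (adjusted p = 4.91e-21) with TMM scaling and 0.016 (adjusted p = 0.627) with library totals alone. The 24 h genotype difference was 3.60 ± 0.03 (adjusted p = 6.84e-65).

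Il18, the gene of the related cytokine IL-18 (chr9:50554827-50581840, plus strand, 56.7 Mb from Cish on the same chromosome), was scarce throughout. In the libraries labelled CIS-/- it was at 3.47, 3.23 and 3.29 CPM unstimulated and 2.96, 2.30 and 2.81 CPM at 4 h, with 1, 2 and 1 reads at 24 h. In WT it was at 3.24, 2.76 and 2.69 CPM unstimulated and 4.19, 4.21 and 3.21 CPM at 4 h, with 1, 5 and 3 reads at 24 h. It had nearly disappeared by 24 h in both: the ratio of summed counts to unstimulated, scaled by library size, was 0.0274 (95% counting interval 0.00738 to 0.0716) in the libraries labelled CIS-/- and 0.0441 (0.0198 to 0.0861) in WT. At 24 h the 4 reads in libraries labelled CIS-/- and 9 in WT leave a ratio anywhere between 0.161 and 2.57, so a genotype difference was not detectable at this depth. The 4 h genotype difference was -0.56 ± 0.19 (edgeR adjusted p = 0.0348), and DESeq2 did not call it (adjusted p = 0.169). The edgeR call was also lost without the low-count filter (0.0976), and without CIS-/- 4 h replicate 2 or 3 or WT 4 h replicate 1 or 2 (0.0549 to 0.217).

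Il1r2 encodes the decoy receptor (chr1:40074079-40125231, plus strand). It rose with time in both genotypes and was the member with the highest level per exon length in WT cells at both 4 h and 24 h. Its level was 372, 372 and 379 CPM in unstimulated libraries labelled CIS-/-, 729, 723 and 719 CPM at 4 h, and 964, 846 and 852 CPM at 24 h. WT levels were 187, 200.5 and 192 CPM unstimulated, 712, 722 and 741 CPM at 4 h, and 1145, 1172 and 1081 CPM at 24 h. The genotypes were apart before culture, overlapped at 4 h, and were apart again at 24 h in the opposite order. The genotype difference was 0.95 ± 0.04 unstimulated (adjusted p = 6.98e-28, with the doubt about those labels), -0.00 at 4 h with a 95% interval of -0.08 to 0.07, and -0.35 ± 0.04 at 24 h (adjusted p = 4.3e-13). Against unstimulated cells the 24 h rise was 1.246 ± 0.04 in the libraries labelled CIS-/- and 2.55 ± 0.04 in WT (adjusted p = 2.05e-36 and 1.99e-50).

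Il1rap, the gene of the accessory chain that the signalling receptor needs (chr16:26581704-26730117, plus strand), rose at 4 h in both genotypes and stayed high only in the libraries labelled CIS-/-. There it was at 50.4, 48.9 and 49.1 CPM unstimulated, 343, 364 and 352 CPM at 4 h, and 299, 321 and 334 CPM at 24 h. In WT it was at 64.8, 59.3 and 62.0 CPM unstimulated, 347, 365 and 362 CPM at 4 h, and 62.9, 69.3 and 68.8 CPM at 24 h. The 24 h WT libraries thus overlapped the unstimulated WT ones. Between 4 h and 24 h it changed by -0.15 ± 0.04 on the log2 scale in the libraries labelled CIS-/- (adjusted p = 0.000378) and by -2.41 ± 0.04 in WT (adjusted p = 1.63e-50), which left a genotype difference of 2.25 ± 0.04 at 24 h (adjusted p = 4.27e-49). At 4 h the genotype difference had an interval of -0.10 to 0.06. Il1r1, the receptor chain that binds IL-1, stayed under 2 CPM in every group: its means at 24 h were 0.185 ± 0.1001 CPM in libraries labelled CIS-/- and 1.74 ± 0.0313 CPM in WT (SD, n = 3 each; it was named after its values were seen).

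The inflammatory caspase genes Casp1 (chr9:5298517-5307265) and Casp4 (chr9:5308828-5336783) lie next to each other on the plus strand of chromosome 9, 102.0 Mb from Cish, and they parted at 24 h. Casp1 averaged 42.7 ± 1.82 CPM unstimulated, 43.5 ± 0.859 CPM at 4 h and 6.58 ± 0.993 CPM at 24 h where the label was CIS-/-. In WT libraries the means were 42.9 ± 0.735, 43.7 ± 1.45 and 6.86 ± 0.397 CPM (SD, n = 3 in each group). At each time the libraries of the genotypes overlapped. Its fall from 4 h to 24 h was -2.74 ± 0.08 on the log2 scale in the libraries labelled CIS-/- and -2.66 ± 0.07 in WT (adjusted p = 9.03e-38 and 7.8e-40). The 24 h genotype difference was -0.08 with a 95% interval of -0.30 to 0.13 (adjusted p = 0.491), but -0.61 (adjusted p = 6.9e-07) with libraries scaled by their totals alone.

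Casp4 was at 30.3, 30.1 and 31.8 CPM in unstimulated libraries labelled CIS-/-, 68.6, 75.0 and 75.7 CPM at 4 h, and 122, 113 and 117 CPM at 24 h. WT libraries had 30.4, 30.4 and 32.1 CPM unstimulated, 69.5, 70.8 and 70.4 CPM at 4 h, and 9.03, 10.1 and 8.83 CPM at 24 h. The genotypes overlapped at the first 2 times and were apart at 24 h. Casp4 rose at 4 h by 1.253 ± 0.05 on the log2 scale in the libraries labelled CIS-/- and by 1.18 ± 0.05 in WT (adjusted p = 1.37e-29 and 2.64e-28). From 4 h to 24 h it rose again in the libraries labelled CIS-/-, by 0.68 ± 0.05, and fell in WT, with a change of -2.91 ± 0.06 (adjusted p = 4.46e-20 and 2.42e-45). The difference at 24 h was 3.65 ± 0.06 (adjusted p = 2.57e-52).

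The RefSeq promoter windows of the caspase pair are shown side by side because these neighbouring genes moved apart (GRCm38.p6, plus strand, 250 bases ending at the base before a RefSeq transcript start: Casp1 chr9:5298267-5298516, Casp4 chr9:5308599-5308848). The Casp4 window ends inside the gene span given above, which comes from another annotation (GENCODE). Capitals mark matches to 4 motifs searched on both strands: STAT (TTCNNNGAA), AP-1 (TGANTCA), C/EBP (TTGCNNAA) and the NF-kB consensus, by name. Of 32817 promoter windows of this length, 7.01% held the STAT motif, 6.75% AP-1, 9.57% C/EBP and 7.25% NF-kB.
Casp1: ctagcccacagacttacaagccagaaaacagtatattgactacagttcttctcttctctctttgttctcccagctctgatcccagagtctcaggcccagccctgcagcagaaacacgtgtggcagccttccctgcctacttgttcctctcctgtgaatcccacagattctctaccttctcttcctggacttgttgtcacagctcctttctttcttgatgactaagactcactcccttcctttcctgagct
Casp4: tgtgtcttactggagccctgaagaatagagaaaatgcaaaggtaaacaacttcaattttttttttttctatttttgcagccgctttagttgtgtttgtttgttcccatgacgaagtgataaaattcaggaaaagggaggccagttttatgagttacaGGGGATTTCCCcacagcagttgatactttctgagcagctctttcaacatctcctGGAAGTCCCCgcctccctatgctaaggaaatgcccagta
The Casp4 window held 3 NF-kB matches, of which 2 overlap, and the Casp1 window held no match to any of the 4 motifs. Another RefSeq window of Casp4 (chr9:5308610-5308859) held the same 3 matches. The other members' windows held an AP-1 match in 1 of those of Il1rn and an NF-kB match in 1 of those of Nlrp3. They held a STAT match for Il1r2, a C/EBP match for Pycard, and none for Il1b, Il18 and Il1rap. The bases that follow the Il18 window were not found in a GENCODE transcript of that gene. A match is a description of these letters and not evidence of binding.

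Nlrp3, the sensor gene (chr11:59541568-59566956, plus strand), was higher in the libraries labelled CIS-/- at all 3 times. Its level there was 281, 289 and 301 CPM unstimulated, 621, 613 and 609 CPM at 4 h, and 938, 1051 and 1007 CPM at 24 h. The WT levels were 223, 228 and 230.3 CPM unstimulated, 499, 508 and 527 CPM at 4 h, and 396, 400.3 and 406 CPM at 24 h. The genotypes did not overlap at any time. The difference was 0.35 ± 0.04 on the log2 scale unstimulated, where the label is in doubt, 0.26 ± 0.03 at 4 h and 1.32 ± 0.03 at 24 h (adjusted p = 4.61e-12, 1.14e-08 and 3.4e-41). Over the alternative fits the 24 h difference ran from 0.78 to 1.36, so it was under 2-fold at its lowest. Between the culture times Nlrp3 rose by 0.70 ± 0.03 in the libraries labelled CIS-/- (adjusted p = 3.66e-27), while the WT change of -0.35 ± 0.03 (adjusted p = 7.14e-14) became 0.14 (adjusted p = 0.000423) with library totals alone.

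Pycard, the gene of the adaptor ASC (chr7:127989708-127993867, minus strand), rose in both genotypes and ended lower in the libraries labelled CIS-/-. In these it was at 14.6, 15.6 and 18.7 CPM unstimulated, 131, 128 and 124 CPM at 4 h, and 163, 143 and 148 CPM at 24 h. WT libraries had 17.7, 19.2 and 16.5 CPM unstimulated, 134, 136 and 131 CPM at 4 h, and 223, 222 and 230.3 CPM at 24 h. The genotypes overlapped until 4 h and were apart at 24 h. The rise by 24 h was 3.22 ± 0.06 on the log2 scale in the libraries labelled CIS-/- and 3.67 ± 0.06 in WT (adjusted p = 1.39e-48 and 1.58e-52). The 24 h genotype difference was -0.57 ± 0.04 (adjusted p = 1.88e-18), and it ran from -1.10 to -0.53 over the alternative fits.

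Several of these genes overlap others, and the sources used here do not give whether counting used strand. Il1r2 shares 3071 bases on its own strand with Gm37347, which held 7998 counts over the 18 libraries beside 205040 for Il1r2. On the opposite strand, Il1bos overlaps Il1b (1885 counts beside 205594), Gm14023 overlaps Il1a (223 beside 6987), Bco2 overlaps Il18 (239 beside 580) and Gm45205 overlaps Pycard (167 beside 34710).

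At 24 h, 8 of the 10 members differed between libraries labelled CIS-/- and WT, 6 upward and 2 downward. This count stands against a high background: 76.3% of all genes tested were called in this comparison, 38.2% upward and 38.1% downward, so the share of members called is close to that of all genes. By size, 6 of 10 members were at least 2-fold apart, against 34.2% of all genes tested. The size of 2 members depended on the fit: at its lowest over the alternative fits Nlrp3 was at 0.78 on the log2 scale, and Pycard at -1.10. The members were chosen with earlier results of these data known, so neither this share nor the median below is a test of the set. Without CIS-/- 24 h replicate 1, which stood apart, 8 members were again called, with a log2 fold change of 5.41 for Il1a, 3.62 for Casp4, 3.59 for Il1rn, 2.82 for Il1b, 2.29 for Il1rap, 1.36 for Nlrp3, -0.41 for Il1r2 and -0.62 for Pycard. The members' median log2 fold change over all libraries was 1.78, beside -0.02 over all genes. With libraries scaled by their totals alone the median of all genes moved to -0.55, and 26.8% rather than 50% of all calls were higher in the libraries labelled CIS-/-.

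At 4 h, 4 of 10 members were called between genotypes, upward for Il1a, Il1b and Nlrp3 and downward for Il18, while 17.3% of all genes were called, 8% upward and 9.3% downward. The count fell to 2, Il1a and Nlrp3, without WT 4 h replicate 1, WT 4 h replicate 2 or CIS-/- 4 h replicate 2. No member and 1.09% of all genes reached 2-fold. In unstimulated cells, where Cish was higher in the libraries labelled CIS-/-, 4 of 10 were called, upward for Il1b, Il1r2 and Nlrp3 and downward for Il1rap. Of all genes 22.3% were called there (12.9% upward, 9.41% downward). Of all these calls 57.8% were in the higher direction, and 41.3% with library totals alone.

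**Figure D2:**
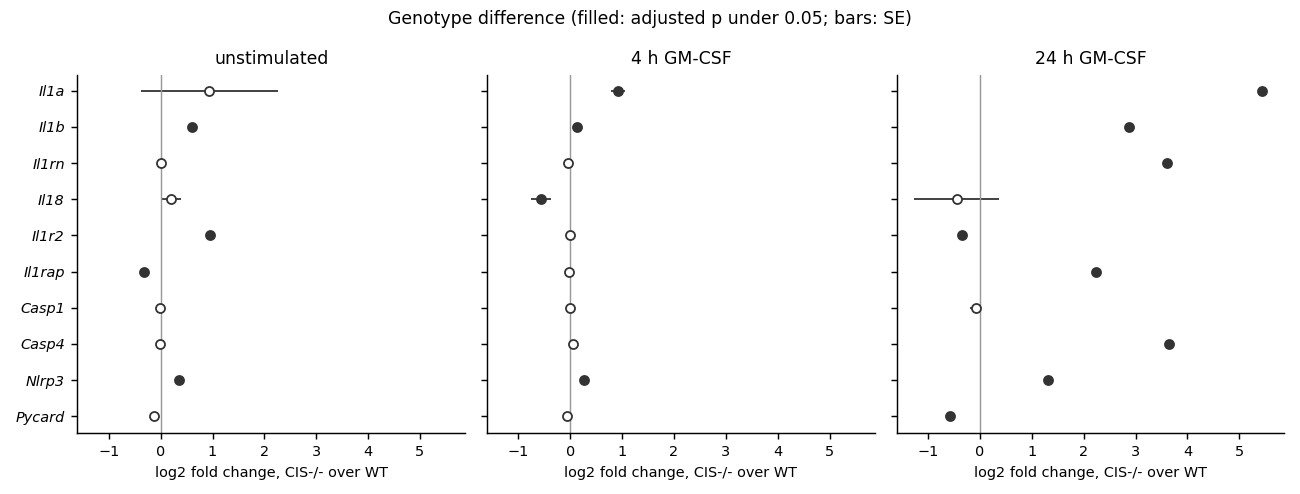
Log2 fold change, libraries labelled CIS-/- over WT, of each of the 10 genes at each time. Bars are standard errors from the edgeR model. Filled points are called at an adjusted p under 0.05, and the vertical line marks no difference. At 24 h Il1a lies at 5.45 and Casp4 at 3.65, Casp1 at -0.08 and Pycard at -0.57, while at 4 h all 10 lie between -0.56 and 0.92.

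Over time, most members changed, as did most genes. In the libraries labelled CIS-/-, 8 of 10 were called at 4 h against unstimulated (77% of all genes, 37.9% upward and 39.1% downward), all but Il18 and Casp1, and Il1b was the one called lower. At 24 h against unstimulated all 10 were called, 7 higher and 3 lower (Il1b, Il18 and Casp1), against 84.1% of all genes (42.1% upward, 42% downward). From 4 h to 24 h all 10 were again called, 7 higher and 3 lower (Il18, Il1rap and Casp1), against 75.7% of all genes (37.8% upward, 37.9% downward).

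In WT, 9 of 10 were called at 4 h against unstimulated (76.3% of all genes, 38.1% upward and 38.2% downward), with Casp1 not called and Il1b lower, and Il18, whose libraries overlapped, called at an adjusted p of 0.0291. That Il18 call was lost with library totals alone (0.201), DESeq2 (0.131) or no filter (0.0647), and without WT 4 h replicate 1 or 2 or WT unstimulated replicate 2 or 3 (0.071 to 0.116). At 24 h against unstimulated all 10 were called (78.4% of all genes, 40.7% upward and 37.7% downward), 6 higher and 4 lower (Il1b, Il18, Casp1 and Casp4), of which Il1rap at 0.11 ± 0.05 (adjusted p = 0.0262) overlapped between times. That Il1rap call was lost without any one of 4 libraries: WT unstimulated replicate 2 or 3, or WT 24 h replicate 2 or 3 (adjusted p = 0.0658 to 0.152). From 4 h to 24 h 2 were higher (Il1r2 and Pycard) and 8 lower with TMM scaling (75.3% of all genes, 35.7% upward and 39.6% downward), and Il1b, Il1rn and Nlrp3 changed sign with library totals alone. The comparisons of 1 genotype share libraries with each other, so their values are given side by side and not as independent results. With library totals alone the median of all genes was 0.36 for WT at 24 h against unstimulated and 0.45 for WT at 24 h against 4 h, and 66.8% and 73% of the calls were higher, rather than 51.9% and 47.4%.

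Tests of the interaction between genotype and time asked whether a member's change differed between genotypes. It did for 8 of 10 members from 4 h to 24 h, 6 with a more positive change in the libraries labelled CIS-/- (Il1a, Il1b, Il1rn, Il1rap, Casp4 and Nlrp3) and 2 with a less positive one (Il1r2 and Pycard). Over all genes 66% were called in this test, 33.9% upward and 32.1% downward. From unstimulated to 4 h, 4 of 10 were called, upward for Il1rap and downward for Il1b, Il18 and Il1r2, against 15.7% of all genes (5.32% upward, 10.4% downward), and these rest on the unstimulated libraries labelled CIS-/-, with their contrary Cish level.

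Per exon length, as RPKM (CPM divided by exon length in kilobases), the most abundant member differed between groups. In the libraries labelled CIS-/- it was Il1b unstimulated (780.1 ± 2.81 RPKM, SD, n = 3), Il1r2 at 4 h (379 ± 2.56) and Il1rn at 24 h (1303 ± 32.7). In WT libraries it was Il1b unstimulated (514 ± 3.74 RPKM), and Il1r2 at both 4 h (379.96 ± 7.74) and 24 h (594 ± 24.5).

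Ratios within a library do not depend on how libraries are scaled. Il1rn over Il1b, the antagonist against the cytokine per exon length, averaged 0.0741 ± 0.000394 unstimulated, 1.247 ± 0.0101 at 4 h and 1.93 ± 0.0837 at 24 h in the libraries labelled CIS-/-. In WT it averaged 0.112 ± 0.00243, 1.40 ± 0.0252 and 1.15 ± 0.0144 (SD, n = 3). So the antagonist's mRNA moved further than the cytokine's in the 24 h libraries labelled CIS-/-, although both were above WT. Il1r2 over Il1b was 0.687 ± 0.0162 in libraries labelled CIS-/- and 6.40 ± 0.147 in WT at 24 h. Casp4 over Casp1 was 7.33 ± 1.36 in libraries labelled CIS-/- and 0.547 ± 0.0130 in WT at 24 h, beside 0.679 ± 0.0253 and 0.648 ± 0.0250 at 4 h. The genotypes did not overlap in any of the 3 ratios at 24 h, and each exact permutation test gave p = 0.1, two-sided, the smallest that 3 against 3 allows (0.129 adjusted over the 9 tests of ratios).

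**Figure D3:**
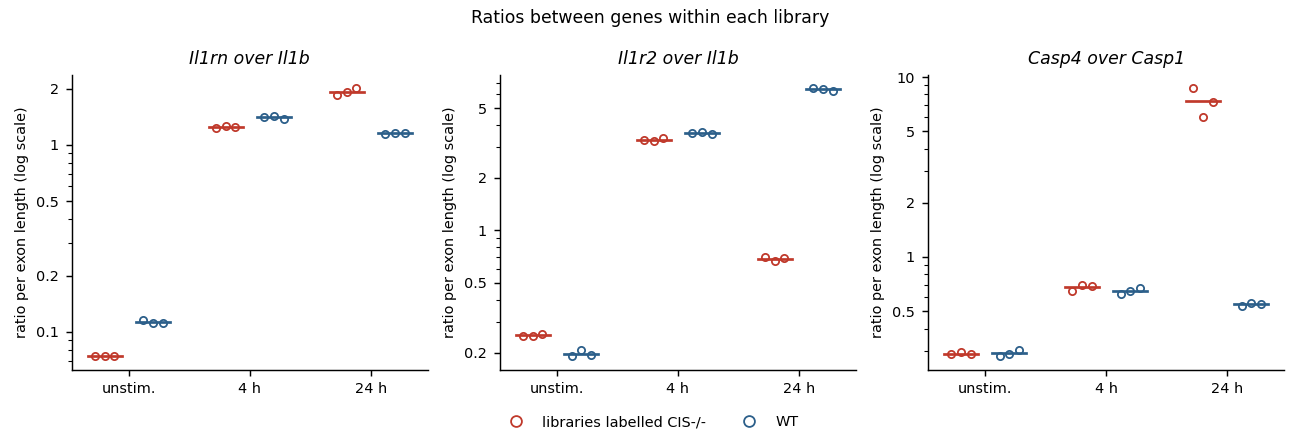
Ratios of Il1rn to Il1b, Il1r2 to Il1b and Casp4 to Casp1 per exon length in each of the 18 libraries, on log axes, by time and genotype. At 24 h the Casp4 to Casp1 ratio lies at 5.98 to 8.69 in libraries labelled CIS-/- and at 0.533 to 0.558 in WT.

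The wider pathway was described with 59 other genes of IL-1 family signalling and inflammasomes, of which 47 were tested. At 24 h, 26 of the 47 differed upward and 19 downward between libraries labelled CIS-/- and WT, and 2 were not called, again against 76.3% called among all genes. The largest differences among those at 10 CPM or more were in Capn2, a subunit of the calpains that can process pro-IL-1α (log2 fold change 5.20 ± 0.18), Mefv, the gene of the inflammasome sensor pyrin (2.996 ± 0.04), Irak2, a kinase downstream of the IL-1 receptor (2.92 ± 0.03), and Tnfaip3, the gene of the NF-kB inhibitor A20 (2.91 ± 0.04). Their edgeR adjusted p-values were 3.05e-35, 1.92e-57, 1.2e-59 and 3.26e-54. Capn1, the other calpain gene listed, went the other way (-1.20 ± 0.04, adjusted p = 3.46e-38). Capn1 averaged 109 CPM in libraries labelled CIS-/- and 251 CPM in WT, beside 17.9 CPM and 0.494 CPM for Capn2 (Capn1 was named after its values were seen). Among the 19 lower genes, Nlrp1b, an inflammasome sensor, differed by as much as Tnfaip3 (-2.91 ± 0.15, adjusted p = 1.84e-26), at 1.86 ± 0.711 CPM in libraries labelled CIS-/- and 13.5 ± 0.762 CPM in WT (SD, n = 3 each; it ranked just outside the 4 and was named after its values were seen). The one other IL-1 family ligand tested, Il1f9 (IL-36γ), was at 5797 ± 141 CPM in libraries labelled CIS-/- and 1071 ± 23.6 CPM in WT at 24 h (SD, n = 3 each; it was named after its values were seen).

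At 4 h, 11 of the 47 pathway genes were higher, 4 lower and 32 not called between genotypes, beside 17.3% called among all genes (8% upward, 9.3% downward), led by Traf6, a ubiquitin ligase of the receptor pathway (0.53 ± 0.04), Tnfaip3 (0.46 ± 0.05), Mefv (0.35 ± 0.04) and Serpinb1a, a protease inhibitor that can restrain inflammatory caspases (0.31 ± 0.04). In unstimulated cells 9 were higher, 11 lower and 27 not called, beside 22.3% called among all genes, led by Tnfaip3 (0.86 ± 0.05) and Tab1 (-0.60 ± 0.11), with the doubt about those labels. Against unstimulated cells at 24 h, 29 rose and 17 fell where the label was CIS-/-, and 22 rose and 20 fell in WT, beside 84.1% (42.1% upward, 42% downward) and 78.4% (40.7% upward, 37.7% downward) of all genes called in these comparisons. Il1rl2, the IL-36 receptor gene, had the largest 24 h rise in both, 6.60 ± 0.10 in the libraries labelled CIS-/- and 8.22 ± 0.08 in WT (adjusted p = 3.54e-55 and 3.56e-65).

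**Figure D4:**
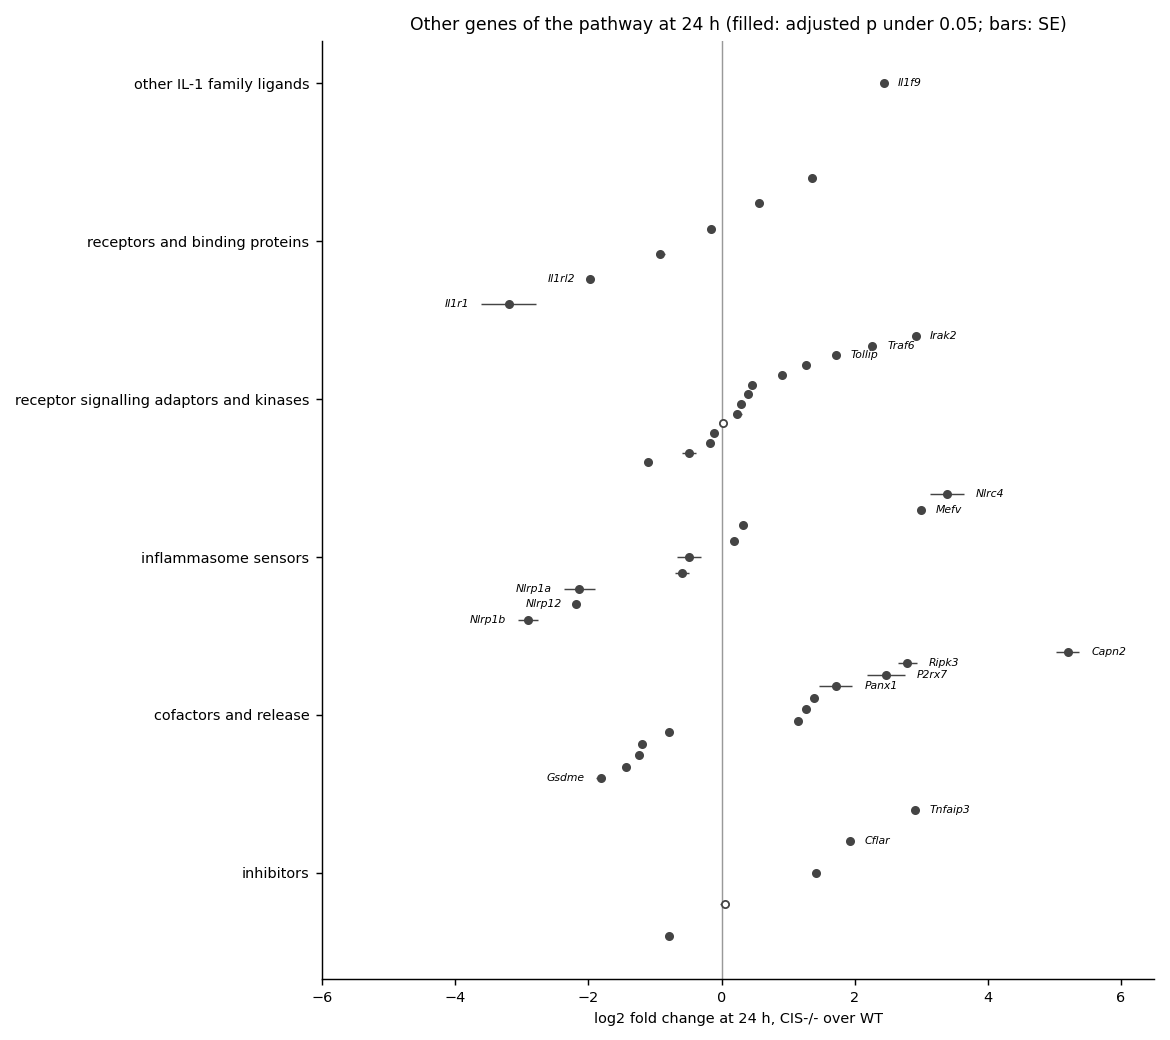
Log2 fold change at 24 h, libraries labelled CIS-/- over WT, of the 47 tested pathway genes by role. Bars are standard errors, and filled points are called at an adjusted p under 0.05. Capn2 at 5.20 lies farthest to the right.

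Markers of other cell types moved with genotype at 24 h. The 12 monocyte and macrophage markers summed to 1011 to 1050 CPM in libraries labelled CIS-/- and 540.2 to 561 CPM in WT, most of it Adgre1 (777 CPM and 344 CPM on average). Ly6c2 averaged 77.5 CPM in libraries labelled CIS-/- and 45.4 CPM in WT, Csf1r 169 CPM in libraries labelled CIS-/- and 163 CPM in WT, and F13a1 3.12 CPM in libraries labelled CIS-/- and 0.276 CPM in WT. Of the 12 markers 5 were tested, and libraries labelled CIS-/- were called higher than WT in 3 of these and lower in 0. The other 8 markers, among them Ccr2, Cx3cr1, Mertk and the 3 C1q genes, each averaged under 1 CPM in both groups, and C1qb was at 0 in the libraries labelled CIS-/-, C1qa and C1qc in WT. Erythroid markers (5 genes) summed to 21.2 to 31.9 CPM in libraries labelled CIS-/- and 5.54 to 6.96 CPM in WT, and eosinophil markers (5 genes) to 51.9 to 56.4 CPM in libraries labelled CIS-/- and 57.1 to 65.0 CPM in WT. At 4 h the erythroid sum was 56.3 to 82.4 CPM in libraries labelled CIS-/- and 22.2 to 26.2 CPM in WT. The eosinophil sum at 4 h was 37.2 to 40.2 CPM in libraries labelled CIS-/- and 16.4 to 22.5 CPM in WT. Most of that gap was Ccr3, at 20.9 CPM in libraries labelled CIS-/- and 1.98 CPM in WT on average. In the same order Siglecf averaged 9.30 and 7.02 CPM and Il5ra 0.267 and 0.154 CPM at 4 h. Prg2 (7.05 and 8.02 CPM) and Epx (1.63 and 2.49 CPM) went the other way. At 24 h Ccr3 averaged 14.1 and 1.37 CPM, and Siglecf 34.3 and 52.3 CPM. Unstimulated, the erythroid sum was 82.8 to 83.9 CPM in libraries labelled CIS-/- and 29.6 to 32.8 CPM in WT. Markers of B cells, of T and NK cells and of basophils and mast cells summed to 2.12 CPM or less, and dendritic cell markers to 2.502 CPM or less, in each 24 h library. The part of the monocyte, eosinophil and erythroid markers in the differences was not tested.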

How the data were processed

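RNA was sequenced from sorted bone marrow neutrophils in 18 libraries. The deposited values are raw counts of reads per gene. Per the submitters' processing notes, the authors used Trimmomatic, STAR, featureCounts and the mm10 build; the sources used here give no version, annotation release or strand setting. Libraries came from a directional kit, per the labels' protocols. The labels' treatment protocol gives 42 h where titles and extraction protocol give 24 h, which was used.

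The 10 genes, the pathway and marker lists and the tests were chosen with earlier results of these data known. Names, coordinates and exon lengths came from GENCODE mouse release M21 (GRCm38), in which 53274 of 53379 IDs had a name. Genes were filtered with filterByExpr (minimum count 10) by group, leaving 11569 with 99.928% of the counts, scaled with TMM factors and fitted in 1 model of 6 groups in R 4.3.3 with edgeR 4.0.16 (robust quasi-likelihood test, two-sided). Adjusted p-values are Benjamini-Hochberg over all 11569 genes, called under 0.05. CPM use TMM-scaled library sizes, and standard errors come from the unshrunk coefficient and its F statistic.

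Named pathway genes were at most the 4 called ones per comparison with the largest change and at least 10 CPM in a compared group. The IL-36 genes were matched through RefSeq synonyms. The alternatives were DESeq2 1.42.0, limma-voom (limma 3.58.1), RLE factors, library totals alone, no filter, a filter of 50 counts in 3 libraries, the compared groups only, a replicate block and each library left out. The script was tested on simulated data. No replicates held identical counts: chi-square divided by its degrees of freedom was 1.29 to 8.97 over the pairs. The lowest values are close to what counting error alone gives, so they do not show whether any libraries were made from the same RNA.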

Additional observations from a re-analysis of the deposited data

Results flagged for a closer look

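In 12 cases a test of the interaction between genotype and time in the edgeR model showed that a gene's change with time differed between the libraries labelled CIS-/- and WT. Values are differences of log2 fold changes, libraries labelled CIS-/- minus WT, with Benjamini-Hochberg adjusted p over all genes. No explanation was tested for any of them.

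From 4 h to 24 h, 8 of 10 members differed, against 66% of all genes tested. The difference was 4.52 for Il1a (adjusted p = 2.76e-27), 3.65 for Il1rn (6.08e-58), 3.59 for Casp4 (1.41e-44), 2.74 for Il1b (1.49e-48), 2.27 for Il1rap (6.45e-42) and 1.05 for Nlrp3 (4.4e-28). It was -0.50 for Pycard (2.36e-10) and -0.35 for Il1r2 (2.55e-08), which rose in both genotypes, less in the libraries labelled CIS-/-. With library totals alone the median of all genes for this interaction moved to -0.53 and 26.7% of calls were positive, rather than 51.4%; the 8 members kept their direction.

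From unstimulated to 4 h, 4 of 10 differed, against 15.7% of all genes. The difference was -0.96 for Il1r2 (1.52e-21), -0.48 for Il1b (1.28e-11), -0.76 for Il18 (0.0384) and 0.31 for Il1rap (0.000154). All 4 use the unstimulated libraries labelled CIS-/-, whose Cish level goes against their label. The Il18 value was not called by DESeq2 (adjusted p = 0.19) or without the low-count filter (0.111), with library totals alone (0.0502), or when any of 8 libraries was left out: CIS-/- 4 h replicate 2, WT 4 h replicate 1 or 2, CIS-/- unstimulated replicate 1, 2 or 3, or WT unstimulated replicate 2 or 3 (0.054 to 0.141).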

How the results depend on the processing

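Of 2858 values of the 10 genes under the alternatives, 2751 kept their sign and their side of the threshold, 32 lost the call and 3 gained it. Another 68 changed sign without being called in either fit, 43 of them with a library left out. The 4 sign changes of values called in at least 1 of the fits came with library totals alone: Casp1 in WT at 4 h against unstimulated (-0.15, adjusted p = 0.0174), and Il1b (0.30), Il1rn (0.016) and Nlrp3 (0.14) in WT at 24 h against 4 h. Leaving out 1 library left 2 to 4 members called between genotypes at 4 h, 8 to 9 in WT at 4 h and 9 to 10 at 24 h against unstimulated, and 3 to 4 for the interaction from unstimulated to 4 h. The other 7 counts did not move when 1 library was left out. Calls of Il18 at 4 h rest on 107 and 157 reads over 3 libraries labelled CIS-/- and WT, and were lost under DESeq2, with no filter and without single libraries named above.

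Same-numbered libraries did not deviate together (r from -0.0775 to 0.065, 0 of 45 pairs over 0.1). In 14 of the 45 the best match had the same number. Much of the deviation within groups may be counting error, so a shared mouse or batch could go unseen. With a replicate block, 8 members were called between genotypes at 24 h, 4 at 4 h and 4 unstimulated, as without it. It changed no member's call.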

Other observations

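Across the 18 libraries, the genes whose log2 CPM followed a member most closely (Pearson r, among 6775 tested genes at 10 CPM or more in a group) were Patl1 for Il1rn (0.9987), Tgif1 for Il1a (0.994), Gadd45g for Il1b (0.986), Casp1 for Il18 (0.991) and Zfp106 for Il1r2 (0.966). For the others they were Chmp2b for Il1rap (0.993), Glrx for Casp1 (0.996), App for Casp4 (0.991), Txnrd1 for Nlrp3 (0.996) and C3ar1 for Pycard (0.997). These values describe 6 groups of 3 libraries that share a time and a genotype, so they are carried by the differences between groups. Among the members themselves, Il18 and Casp1 were most alike (0.991) and Il1b and Pycard most opposed (-0.69).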
